A study of Mus musculus with 18 samples.

Results

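Voltage-gated sodium and calcium channels were followed gene by gene in the cerebellum of mice that lack 1 of 2 related translational GTPases, GTPBP1 or GTPBP2. Members were taken by gene symbol alone: every Scn gene of a sodium channel alpha or beta subunit, every Cacna1 gene of a calcium channel pore, and the Cacna2d and Cacnb genes of the auxiliary calcium channel subunits. The rule found 32 genes, 14 of sodium and 18 of calcium channels, among 54752 genes in the RNA files, and the same 32 among 22523 genes in the footprint files. Sodium channels carry the upstroke of the action potential, and calcium channels turn the depolarization into calcium entry for transmitter release, dendritic spikes and calcium-dependent transcription. A pore-forming alpha subunit opens in both families, while beta and alpha2delta subunits set how many channels reach the membrane and how they gate. In the cerebellum these channels drive the spontaneous firing of Purkinje cells and the release of glutamate from the parallel fibers of granule cells, and loss of several of them is known to cause ataxia in mice.

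Cerebella were taken at 3 weeks of age from mice on the C57BL/6J background (B6J). Poly(A) RNA-seq and ribosome profiling were done with 3 libraries per genotype and assay, so 9 RNA and 9 footprint libraries were used. The study used mice of both sexes in general. All 3 RNA libraries of *Gtpbp2* mutants had counts of the Y-linked gene Ddx3y as low as in females (21, 13 and 12). B6J.*Gtpbp1*-/- mice are congenic on B6J, and their *Gtpbp1* allele bears PGK-Neo where exon 4 and some of exon 3 would be. B6J-*Gtpbp2*-/- mice are homozygous for the chemically induced nmf205 point mutation, a null allele of *Gtpbp2*, and B6J mice without either mutation served as controls. All 3 groups, the controls included, are homozygous for the hypomorphic n-Tr20 mutation of the C57BL/6J strain, which lowers the supply of the brain tRNA that reads the arginine codon AGA. Each footprint library came from 1 cerebellum. The labels place the RNA libraries in batch 1 and the footprint libraries in batch 2, so assay and batch cannot be told apart. RNA libraries held 37794598 to 52114400 estimated counts and footprint libraries 3630823 to 10442573 counts, of which the channel genes took 0.383% to 0.470% and 0.291% to 0.457%. Levels are given as CPM, counts relative to the library total with trimmed mean of M values (TMM) scaling over the 9 libraries of an assay, in the order of replicates 1, 2 and 3. Comparisons between genes use TPM, kallisto's measure of transcript abundance, which accounts for length. A gene rose or fell where edgeR gave an adjusted p of at most 0.05 over all genes tested, and fold changes are on the log2 scale with the mutant over B6J.

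The mutated genes matched the labels in part. RNA of *Gtpbp1* was 70.7, 77.6 and 66.5 CPM in B6J, 44.2, 41.7 and 43.8 in B6J.*Gtpbp1*-/- and 58.8, 72.3 and 65.8 in B6J-*Gtpbp2*-/-, and its footprints were 73.9, 116 and 85.6 CPM in B6J, 31.7, 25.4 and 36.1 in B6J.*Gtpbp1*-/- and 79.3, 66.2 and 61.8 in B6J-*Gtpbp2*-/-. The B6J.*Gtpbp1*-/- libraries were the lowest in both assays, without overlap with the other groups, with log2 fold changes of -0.73 (adjusted p 5.94e-05) for RNA and -1.57 (adjusted p 0.00676) for footprints. RNA of *Gtpbp2* was 85.6, 73.8 and 87.8 CPM in B6J, 109, 101 and 104 in B6J.*Gtpbp1*-/- and 65.6, 75.5 and 72.9 in B6J-*Gtpbp2*-/-. It rose in B6J.*Gtpbp1*-/- (0.34, adjusted p 0.0154), while in B6J-*Gtpbp2*-/-, whose allele is a point mutation, it overlapped with B6J (-0.22, adjusted p 0.190). Footprints of *Gtpbp2* were 44.9, 36.0 and 38.8 CPM in B6J and 28.9, 26.2 and 7.51 CPM in B6J-*Gtpbp2*-/-, where all 3 values lay below B6J without passing the test (-0.97, adjusted p 0.321). So the label of the B6J-*Gtpbp2*-/- libraries rests on the annotation and not on an RNA change of *Gtpbp2*.

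More channel genes fell than rose in either mutant, and the sodium channel beta subunit *Scn2b* and the R-type calcium channel pore *Cacna1e* were among the well expressed members that fell most. Counts are over all members, also those not described singly. In B6J.*Gtpbp1*-/-, 9 of 31 tested members passed the threshold (1 up, 8 down), which is 29.0% of the tested members beside 13.8% of all 24577 genes tested, 5.9% up and 7.93% down. In B6J-*Gtpbp2*-/-, 8 of 30 passed (2 up, 6 down), 26.7% beside 8.63% of all 24859 genes, 3.61% up and 5.02% down. Both comparisons use the same 3 B6J libraries. The tested members had a median log2 fold change of -0.00 (B6J.*Gtpbp1*-/-) and -0.01 (B6J-*Gtpbp2*-/-), beside 0.03 and 0.03 over all genes tested. With upper quartile scaling the members past the threshold numbered 8 and 6, and over all genes the balance turned, from 1449 up and 1949 down to 1837 up and 1512 down in B6J.*Gtpbp1*-/- and from 898 up and 1248 down to 1074 up and 941 down in B6J-*Gtpbp2*-/-. *Scn10a* had 1 estimated count in 1 library and was tested in none of the main fits. *Scn4a* was tested there in B6J.*Gtpbp1*-/- and not in B6J-*Gtpbp2*-/-. With no filter on low counts, all 32 members were tested in B6J.*Gtpbp1*-/-. Among the genes past the threshold in both mutants were *Scn2b*, *Scn11a*, *Cacna1a*, *Cacna1e* and *Cacnb4*, which fell, and *Cacna2d1*, which rose. *Scn8a* and *Cacnb3* fell in B6J.*Gtpbp1*-/- only, *Cacna1h* rose in B6J-*Gtpbp2*-/- only, and 22 members passed in neither. Tested directly against each other, the mutants differed in 0 of 31 members by edgeR and 0 by DESeq2, with 2 members at an unadjusted p under 0.05, beside 0.0595% of all 25190 genes past the threshold, 0.0159% up and 0.0437% down.

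Levels ranged from abundant neuronal channels to genes close to 0. By mean TPM over the 9 RNA libraries the abundant members included *Cacna1g* (197), *Cacna1a* (169.5), *Cacnb4* (160.5), *Scn2a* (139.8) and *Scn2b* (97.7). *Cacna2d2* (66.3), *Scn8a* (60.5), *Scn1a* (59.2), *Cacna1e* (59.0), *Cacna2d1* (58.7), *Cacna2d3* (49.1), *Cacnb2* (45.1), *Cacna1d* (40.4) and *Cacnb3* (38.1) followed. Next came *Cacna1b* (29.9), *Scn4b* (28.4), *Cacna1c* (16.6), *Cacna1i* (14.5), *Cacnb1* (14.3) and *Scn3b* (9.10). The remaining 11 members had at most 3.42 TPM, the value of *Scn3a*. The libraries of *Cacna1a* and *Cacnb4*, and those of *Scn8a*, *Scn1a*, *Cacna1e* and *Cacna2d1*, overlapped, so neighbours in this order are not all apart. Footprints per length were high for *Scn2b*, with 794 CPM per 1000 codons of the main coding transcript, for *Cacna2d2* (491) and *Scn4b* (355), and for *Cacnb4* (318), *Cacna1a* (238) and *Cacna1g* (222).

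**Figure D1:**
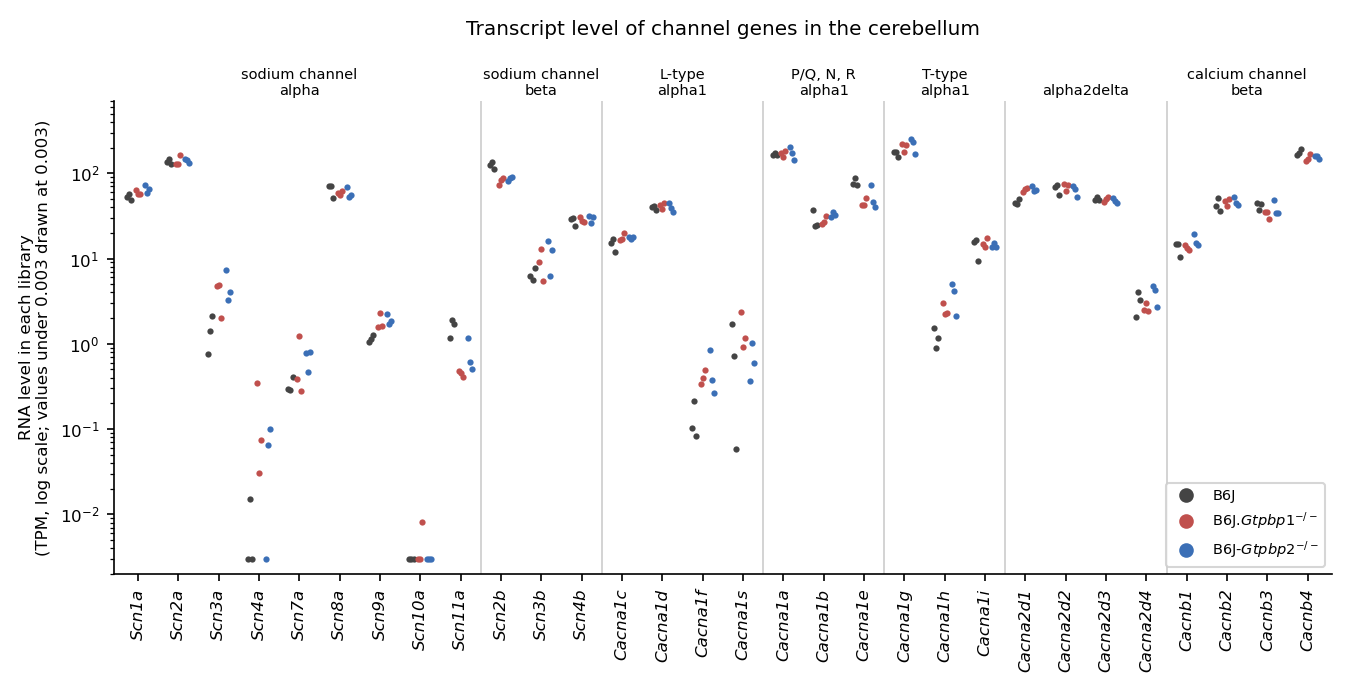
RNA level of channel genes in TPM on a log axis, with 1 point per library and color by genotype. *Cacna1g*, *Cacna1a*, *Cacnb4* and *Scn2a* lie high, and channels of muscle and sensory neurons lie at the bottom, with values near 0 drawn at the lower edge.

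Bulk tissue was sequenced, so fewer cells of a type and less RNA per cell cannot be told apart, and RNA markers of several cerebellar cell types fell in the same libraries. The summed CPM of 8 granule cell markers, of which *Cbln3* was the most abundant, was 6075, 6369 and 5965 in B6J, 3899.6, 3849 and 4464 in B6J.*Gtpbp1*-/- and 3972, 4368 and 3822 in B6J-*Gtpbp2*-/-. All mutant libraries lay below all B6J libraries, and 7 of 8 markers fell in each mutant, *Gabra6* most (-1.08 and -1.02), while *Fat2* did not pass (-0.19 and -0.32). For 6 Purkinje cell markers, led by *Itpr1*, the sum was 8054, 9146 and 6851 in B6J, 6647, 5933 and 7663 in B6J.*Gtpbp1*-/- and 6017, 6825 and 5613 in B6J-*Gtpbp2*-/-, with B6J-*Gtpbp2*-/- below B6J and B6J.*Gtpbp1*-/- overlapping with it, and 2 and 3 of 6 markers fell in B6J.*Gtpbp1*-/- and B6J-*Gtpbp2*-/-. The sum of 6 markers of inhibitory interneurons, led by *Gad1*, was 1727, 1791 and 1562 in B6J, 1556, 1291 and 1345 in B6J.*Gtpbp1*-/- and 1374, 1275 and 1154 in B6J-*Gtpbp2*-/-. In CPM it was lower in every mutant library than in any B6J library, narrowly so in B6J.*Gtpbp1*-/-, and 3 and 4 of 6 markers fell. In summed TPM this list had 1686, 1685 and 1539 in B6J and 1636, 1383 and 1420 in B6J.*Gtpbp1*-/-, which overlapped. The Purkinje cell sum of B6J-*Gtpbp2*-/- also overlapped with B6J in TPM, while the granule cell sums of both mutants stayed below B6J. Oligodendrocyte markers, led by *Mbp*, had a summed CPM of 11177, 9828 and 11424 in B6J, 8328, 8344 and 7153 in B6J.*Gtpbp1*-/- and 12107, 9054 and 9659 in B6J-*Gtpbp2*-/-, with 6 of 6 fallen in B6J.*Gtpbp1*-/- and 0 of 6 by edgeR, by DESeq2 and at an unadjusted p under 0.05 in B6J-*Gtpbp2*-/-. Tested directly between the mutants, 0 of these 6 passed by edgeR, with 5 under 0.05 unadjusted and 2 called by DESeq2. None of these lists had a gene at 0 in all libraries. Of all genes tested in RNA, 7.93% fell in B6J.*Gtpbp1*-/- and 5.02% in B6J-*Gtpbp2*-/-. The part of these cell types in the changes of the channel genes was not tested.

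Among the sodium channel alpha subunits, 2 of 9 tested fell in B6J.*Gtpbp1*-/- and 1 of 8 tested fell in B6J-*Gtpbp2*-/-, beside 7.93% and 5.02% of all genes tested, and none rose. *Scn8a*, the channel of the axon initial segment and nodes that carries much of the resurgent current of Purkinje cells, had 329, 374 and 289 CPM in B6J, 258, 251 and 288 in B6J.*Gtpbp1*-/- and 302, 262 and 266 in B6J-*Gtpbp2*-/-. The 3 B6J.*Gtpbp1*-/- libraries lay just under the lowest B6J library, whereas B6J-*Gtpbp2*-/- overlapped with B6J and with B6J.*Gtpbp1*-/-, and *Scn8a* fell in B6J.*Gtpbp1*-/- (-0.32, adjusted p 0.0467) but not in B6J-*Gtpbp2*-/- (-0.26, adjusted p 0.149). Its call in B6J.*Gtpbp1*-/- was lost with upper quartile scaling, with effective lengths as offsets, with all 9 libraries in a single model, with the replicate block, with sex as a term and without B6J replicate 1 or 2 or B6J.*Gtpbp1*-/- replicate 1 or 2. Footprints of *Scn8a* were 283, 250.4 and 252 CPM in B6J, 187, 218 and 198 in B6J.*Gtpbp1*-/- and 249, 281 and 223 in B6J-*Gtpbp2*-/-, lowest in B6J.*Gtpbp1*-/- without overlap, with fold changes of -0.38 and -0.06 that did not pass (adjusted p 0.373 and 0.883).

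*Scn2a*, a channel of unmyelinated axons that include the parallel fibers, had 471, 506 and 434 CPM in B6J, 388, 388 and 464 in B6J.*Gtpbp1*-/- and 434, 419 and 398 in B6J-*Gtpbp2*-/-. B6J and the mutants overlapped, and RNA fold changes of -0.19 and -0.18 did not pass (adjusted p 0.228 and 0.249). Its footprints were 319.9, 413 and 291 CPM in B6J, 249, 242 and 254 in B6J.*Gtpbp1*-/- and 248, 223 and 208 in B6J-*Gtpbp2*-/-, lower in all 6 mutant libraries than in any B6J library. These footprint differences did not pass in edgeR (-0.46, adjusted p 0.311 in B6J.*Gtpbp1*-/-, and -0.59, adjusted p 0.0718 in B6J-*Gtpbp2*-/-), and the B6J-*Gtpbp2*-/- one passed in DESeq2, with no filter on low counts and without B6J replicate 3. *Scn1a*, a channel of interneurons and Purkinje cells, had 217, 234 and 194 CPM in B6J, 237, 209 and 211 in B6J.*Gtpbp1*-/- and 270.3, 207 and 243 in B6J-*Gtpbp2*-/-, with overlapping groups and fold changes of 0.02 and 0.15. Per length *Scn2a* had 135, 149 and 130.0 TPM in B6J, 129, 129 and 164 in B6J.*Gtpbp1*-/- and 148, 143 and 130.3 in B6J-*Gtpbp2*-/-. *Scn1a* had 52.9, 56.4 and 48.8 TPM in B6J, 63.8, 57.8 and 57.0 in B6J.*Gtpbp1*-/- and 73.2, 57.9 and 65.4 in B6J-*Gtpbp2*-/- on the same scale. *Scn2a* thus stood above *Scn1a* in every library, and on this scale *Scn1a* was slightly higher in all mutant libraries than in B6J. *Scn3a*, which is mainly a channel of the embryonic brain, had 3.29, 5.71 and 8.64 CPM in B6J, 14.0, 16.6 and 7.61 in B6J.*Gtpbp1*-/- and 28.8, 10.4 and 16.6 in B6J-*Gtpbp2*-/-. Its mutant values were mostly high but scattered, with B6J.*Gtpbp1*-/- replicate 3 inside the B6J range, and the fold changes of 1.11 and 1.65 did not pass in edgeR (adjusted p 0.150 and 0.112), although the gene passed in B6J.*Gtpbp1*-/- without that library or with no filter and in B6J-*Gtpbp2*-/- by DESeq2.

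Alpha subunits known from sensory neurons and muscle were rare here. *Scn11a*, a channel of nociceptive neurons, had 3.72, 6.18 and 5.57 CPM in B6J, 1.43, 1.34 and 1.17 in B6J.*Gtpbp1*-/- and 3.46, 1.78 and 1.48 in B6J-*Gtpbp2*-/-. B6J was high and B6J.*Gtpbp1*-/- lowest without overlap, B6J-*Gtpbp2*-/- replicate 1 came close to the lowest B6J library, and the gene fell in both mutants (-1.97, adjusted p 0.000235 in B6J.*Gtpbp1*-/-, and -1.21, adjusted p 0.0440 in B6J-*Gtpbp2*-/-). Per length it had 1.16, 1.90 and 1.70 TPM in B6J, 0.483, 0.458 and 0.405 in B6J.*Gtpbp1*-/- and 1.18, 0.614 and 0.500 in B6J-*Gtpbp2*-/-, where B6J-*Gtpbp2*-/- replicate 1 lay inside the B6J range. The call in B6J-*Gtpbp2*-/- was lost with upper quartile scaling, with effective lengths, with protein-coding transcripts alone, with the replicate block, with sex as a term and without any 1 of the B6J libraries or B6J-*Gtpbp2*-/- replicate 2 or 3. Footprints of *Scn11a* were 5.84, 9.88 and 7.06 CPM in B6J, 4.15, 2.74 and 0.848 in B6J.*Gtpbp1*-/- and 4.06, 1.09 and 1.64 in B6J-*Gtpbp2*-/-, again lower in all mutant libraries than in any B6J library, with fold changes of -1.52 and -1.70 that did not pass in edgeR (adjusted p 0.187 and 0.0759), the B6J-*Gtpbp2*-/- one passing in DESeq2 and with no filter. Markers of peripheral sensory neurons were rare as well. Their summed CPM of RNA, for 3 genes led by *Calca* and with none at 0, was 0.998, 0.668 and 1.03 in B6J, 4.46, 5.73 and 4.43 in B6J.*Gtpbp1*-/- and 3.48, 4.35 and 5.87 in B6J-*Gtpbp2*-/-, and *Calca* rose in both mutants (3.03 and 2.92). In footprints the sum was 1.80, 3.29 and 6.73 in B6J, 7.86, 5.94 and 7.80 in B6J.*Gtpbp1*-/- and 2.34, 5.99 and 7.22 in B6J-*Gtpbp2*-/-, with overlapping groups. The part of such cells in the *Scn11a* values was not tested.

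*Scn9a*, another channel of sensory and sympathetic neurons, had 4.06, 4.63 and 5.05 CPM in B6J, 5.44, 8.002 and 5.95 in B6J.*Gtpbp1*-/- and 6.54, 5.54 and 6.83 in B6J-*Gtpbp2*-/-, with every mutant library above B6J and fold changes of 0.49 and 0.45 that did not pass (adjusted p 0.138 and 0.175). *Scn7a*, the sodium sensor of glia and circumventricular organs, gave 0.80 and 0.89 (adjusted p 0.361 and 0.119), at 0.861 to 3.85 CPM. *Scn4a* of skeletal muscle had at most 0.417 CPM in any library, *Scn10a* of sensory neurons was at 0 in 8 of 9, and neither passed in the main test. The defining markers of muscle were near 0 as well. The 8 skeletal muscle markers summed to 3.56 to 6.71 CPM, led by *Acta1*, and by edgeR, by DESeq2 and at an unadjusted p under 0.05 the number that changed was 0 in either mutant.

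Sodium channel beta subunits are single-pass membrane proteins with an immunoglobulin domain that modulate gating and act in cell adhesion. *Scn2b*, which is linked to the pore by a disulfide bond, had 341, 378 and 313 CPM in B6J, 181, 206 and 220.0 in B6J.*Gtpbp1*-/- and 203, 224 and 232 in B6J-*Gtpbp2*-/-, which is 344 ± 32.7, 202 ± 19.7 and 219.8 ± 14.9 as mean and SD (n = 3). Every B6J library was above every mutant library, the mutants overlapped with each other, and *Scn2b* fell in B6J.*Gtpbp1*-/- (-0.77, adjusted p 0.000148) and in B6J-*Gtpbp2*-/- (-0.65, adjusted p 0.00141). Both calls held under every alternative tried. Per length, *Scn2b* had 125, 134 and 113 TPM in B6J, 72.1, 82.9 and 88.5 in B6J.*Gtpbp1*-/- and 81.8, 89.1 and 91.5 in B6J-*Gtpbp2*-/-, with the same order of the groups.

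*Scn4b*, the subunit whose cytoplasmic tail is known for the resurgent sodium current, had 92.8, 97.6 and 80.6 CPM in B6J, 90.5, 80.1 and 78.3 in B6J.*Gtpbp1*-/- and 93.2, 76.3 and 91.1 in B6J-*Gtpbp2*-/-, with overlapping groups and fold changes of -0.13 and -0.06 that did not pass. *Scn3b* had 13.0, 11.02 and 18.0 CPM in B6J, 16.7, 25.4 and 10.2 in B6J.*Gtpbp1*-/- and 29.7, 12.01 and 23.3 in B6J-*Gtpbp2*-/-, with wide scatter within the mutants and fold changes of 0.31 and 0.62 (adjusted p 0.681 and 0.360). Its B6J-*Gtpbp2*-/- value passed only without B6J-*Gtpbp2*-/- replicate 2 (0.91). The 10 alpha subunits summed to 262, 280.0 and 236 TPM in B6J, 259, 252 and 287 in B6J.*Gtpbp1*-/- and 303, 260.4 and 258 in B6J-*Gtpbp2*-/-, where the groups overlapped.

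Footprints of *Scn2b* were 181, 213 and 208 CPM in B6J, 167, 172 and 155 in B6J.*Gtpbp1*-/- and 156, 148 and 137 in B6J-*Gtpbp2*-/-, in both mutants below B6J without overlap, and did not pass (-0.29, adjusted p 0.525 in B6J.*Gtpbp1*-/-, and -0.45, adjusted p 0.125 in B6J-*Gtpbp2*-/-). *Scn4b* footprints were 69.9, 61.7 and 93.8 CPM in B6J, 70.3, 91.7 and 49.9 in B6J.*Gtpbp1*-/- and 86.8, 94.0 and 110.2 in B6J-*Gtpbp2*-/-, with overlap and fold changes of -0.08 and 0.37.

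**Figure D2:**
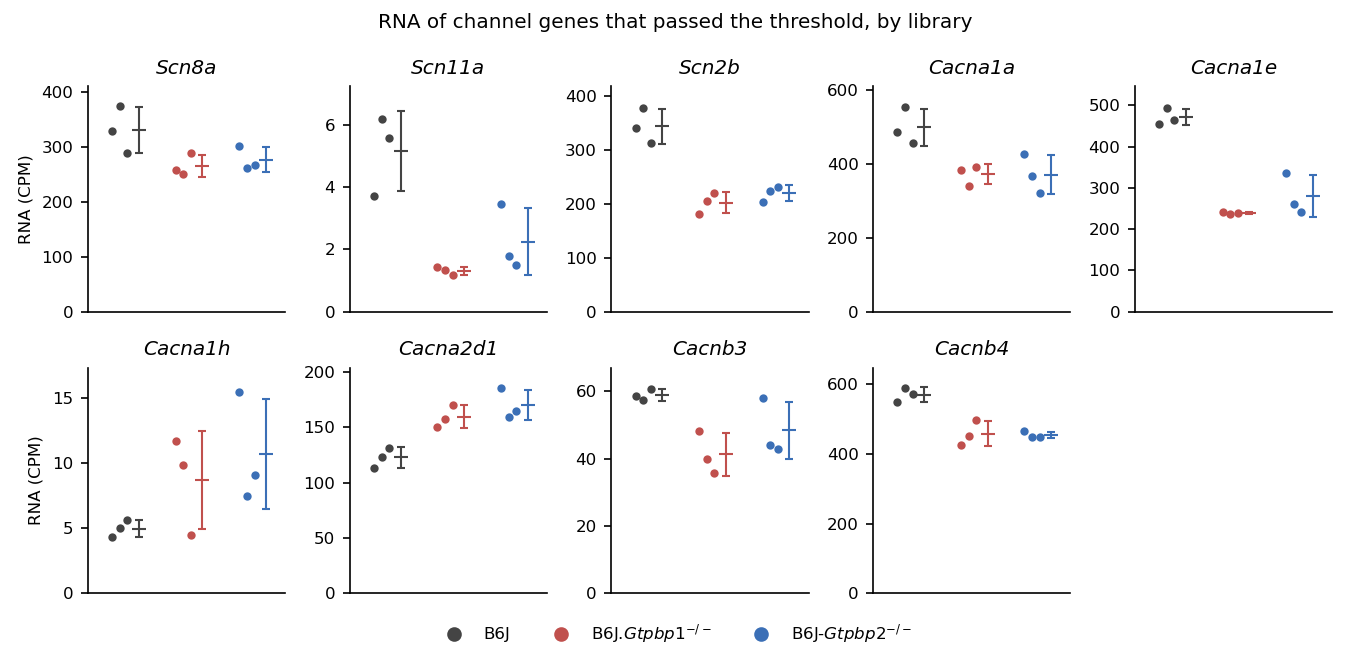
RNA level in CPM of channel genes past the threshold in at least 1 mutant, with 1 point per library and the mean and SD of 3 libraries beside the points. *Scn2b* and *Cacna1e* show B6J libraries well above the others, and *Cacna2d1* shows them below.

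None of the 4 L-type calcium channel pores rose or fell. *Cacna1c*, an L-type channel that couples activity to transcription, had 91.3, 114 and 89.0 CPM in B6J, 98.1, 92.7 and 113 in B6J.*Gtpbp1*-/- and 108, 99.2 and 99.0 in B6J-*Gtpbp2*-/-. *Cacna1d*, an L-type channel known for pacemaking, had 125, 131 and 107 CPM in B6J, 118, 113 and 131 in B6J.*Gtpbp1*-/- and 135, 115 and 107 in B6J-*Gtpbp2*-/-. Groups overlapped for both, with fold changes of 0.04 and 0.05 for *Cacna1c* and of -0.00 and -0.03 for *Cacna1d*. Their footprints were more spread. Footprints of *Cacna1c* were 80.9, 100.3 and 42.2 CPM in B6J, 30.7, 30.3 and 49.5 in B6J.*Gtpbp1*-/- and 50.4, 73.3 and 29.7 in B6J-*Gtpbp2*-/-. Those of *Cacna1d* were 71.9, 71.6 and 27.1 CPM in B6J, 17.4, 28.1 and 30.2 in B6J.*Gtpbp1*-/- and 59.3, 76.5 and 29.2 in B6J-*Gtpbp2*-/-. B6J replicate 3 was far below the other 2 B6J libraries for both genes and overlapped with the mutants. That library also had the fewest choroid plexus footprints, as the 2 markers summed to 5492, 3632 and 51.5 in B6J, 13430.2, 181 and 12111 in B6J.*Gtpbp1*-/- and 465, 9253 and 9436 in B6J-*Gtpbp2*-/-, and the part of its composition in these values was not tested. The footprint fold changes in B6J.*Gtpbp1*-/-, -1.02 and -1.17, did not pass in edgeR (adjusted p 0.165 and 0.167) but passed in DESeq2 and without B6J replicate 3. In B6J-*Gtpbp2*-/- they were -0.56 and -0.06. *Cacna1f* of photoreceptors and *Cacna1s* of skeletal muscle had at most 0.861 and 2.29 CPM of RNA, and too few footprints to test in the main fits.

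Of the pores of presynaptic and dendritic channels, *Cacna1a* and *Cacna1e* fell in both mutants, and *Cacna1b* did not. *Cacna1e*, the pore of the R-type channel found in granule cells and other neurons, had 456, 494 and 465 CPM in B6J, 242, 238 and 239 in B6J.*Gtpbp1*-/- and 337, 261 and 242 in B6J-*Gtpbp2*-/-. The B6J.*Gtpbp1*-/- libraries lay close to each other and far below B6J, and of the B6J-*Gtpbp2*-/- libraries replicate 1 stood higher than the rest yet below B6J. *Cacna1e* fell by 0.98 in B6J.*Gtpbp1*-/- (adjusted p 2.96e-06) and by 0.76 in B6J-*Gtpbp2*-/- (adjusted p 0.00256), in B6J.*Gtpbp1*-/- the largest change of a member above 10 TPM. With effective lengths the B6J-*Gtpbp2*-/- call was lost (adjusted p 0.0840), and in TPM B6J-*Gtpbp2*-/- replicate 1 reached the B6J range, at 74.4, 87.4 and 73.0 TPM in B6J, 42.1, 42.7 and 51.5 in B6J.*Gtpbp1*-/- and 73.5, 45.9 and 40.6 in B6J-*Gtpbp2*-/-. The direct test of B6J.*Gtpbp1*-/- against B6J-*Gtpbp2*-/- gave -0.22 (p 0.0746 unadjusted in edgeR). Footprints of *Cacna1e* were 264, 236 and 123 CPM in B6J, 68.3, 94.3 and 101 in B6J.*Gtpbp1*-/- and 132, 175 and 66.3 in B6J-*Gtpbp2*-/-. B6J replicate 3 was again low, B6J.*Gtpbp1*-/- stayed below all of B6J, and the fold change of -1.24 in B6J.*Gtpbp1*-/- came nearest to the threshold (adjusted p 0.0561), which it passed in DESeq2, with no filter on low counts and without B6J replicate 3. The B6J-*Gtpbp2*-/- one passed with the replicate block alone.

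*Cacna1a*, the P/Q-type pore that carries most presynaptic and Purkinje cell calcium current, had 488, 555 and 457 CPM in B6J, 385, 341 and 391 in B6J.*Gtpbp1*-/- and 427, 367 and 321 in B6J-*Gtpbp2*-/-. B6J was above both mutants in CPM, and *Cacna1a* fell in B6J.*Gtpbp1*-/- (-0.43, adjusted p 0.00783) and in B6J-*Gtpbp2*-/- (-0.43, adjusted p 0.0382). Per length, however, it had 162, 173 and 163 TPM in B6J, 170.5, 157 and 181 in B6J.*Gtpbp1*-/- and 205, 172 and 144 in B6J-*Gtpbp2*-/-, with all groups overlapping, and with effective lengths as offsets both calls were lost, at -0.14 in B6J.*Gtpbp1*-/- and -0.09 in B6J-*Gtpbp2*-/-. Upper quartile scaling also ended the B6J-*Gtpbp2*-/- call, as did sex as a term and leaving out B6J replicate 1 or 2 or B6J-*Gtpbp2*-/- replicate 2 or 3, and in B6J.*Gtpbp1*-/- the call was also lost without B6J.*Gtpbp1*-/- replicate 2. Transcripts show where the scales part. The coding transcript Cacna1a-211, of 7503 bases, had 50.4, 60.6 and 54.2 TPM in B6J, 47.8, 47.6 and 42.4 in B6J.*Gtpbp1*-/- and 53.7, 42.0 and 41.5 in B6J-*Gtpbp2*-/-. The coding transcript Cacna1a-201, of 7926 bases, had 47.4, 50.3 and 35.5 TPM in B6J, 33.2, 26.4 and 41.9 in B6J.*Gtpbp1*-/- and 36.9, 36.5 and 26.6 in B6J-*Gtpbp2*-/-. The short noncoding transcript Cacna1a-210, of 549 bases, had 26.0, 31.8 and 41.6 TPM in B6J, 50.3, 44.4 and 54.7 in B6J.*Gtpbp1*-/- and 67.8, 53.4 and 44.1 in B6J-*Gtpbp2*-/-. It was higher in every mutant library than in any B6J library, and a short transcript weighs more in TPM than in counts. Protein-coding transcripts made up 60.5, 64.3 and 55.1 percent of *Cacna1a* TPM in B6J, 47.7, 47.3 and 47.1 percent in B6J.*Gtpbp1*-/- and 44.4, 46.4 and 47.3 percent in B6J-*Gtpbp2*-/-, lower in all mutant libraries.

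Footprints of *Cacna1a* were 724, 664 and 519 CPM in B6J, 379, 428 and 442 in B6J.*Gtpbp1*-/- and 654, 847 and 417 in B6J-*Gtpbp2*-/-. The B6J.*Gtpbp1*-/- libraries were below B6J and below 2 of the 3 B6J-*Gtpbp2*-/- libraries, but neither the fold change against B6J of -0.61 (adjusted p 0.167) nor the direct difference of -0.63 between the mutants (adjusted p 0.384) passed, and in B6J-*Gtpbp2*-/- the fold change was 0.01. *Cacna1b*, the N-type pore of presynaptic terminals, had 82.7, 90.9 and 82.4 CPM in B6J, 95.8, 91.7 and 96.7 in B6J.*Gtpbp1*-/- and 110.3, 91.1 and 93.6 in B6J-*Gtpbp2*-/-. Its values were slightly higher in the mutants without overlap, and fold changes of 0.14 and 0.20 did not pass (adjusted p 0.222 and 0.221).

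T-type channels open near the resting potential and give burst firing. *Cacna1g*, the main T-type pore of Purkinje cells and deep nuclei, had 454, 496 and 384 CPM in B6J, 488, 400.2 and 462 in B6J.*Gtpbp1*-/- and 517, 461 and 390.0 in B6J-*Gtpbp2*-/-. The groups overlapped throughout, with fold changes of 0.01 and 0.03, as they did per length at 179, 177 and 154 TPM in B6J, 221, 175 and 216 in B6J.*Gtpbp1*-/- and 251, 232 and 168 in B6J-*Gtpbp2*-/-. Footprints of *Cacna1g* were 518, 418 and 413 CPM in B6J, 300.4, 469.7 and 544 in B6J.*Gtpbp1*-/- and 544, 766 and 529 in B6J-*Gtpbp2*-/-, with all B6J-*Gtpbp2*-/- libraries above B6J by a margin that did not pass (0.45, adjusted p 0.211). *Cacna1i* had 71.1, 88.9 and 62.1 CPM in B6J, 74.3, 69.6 and 87.0 in B6J.*Gtpbp1*-/- and 70.6, 76.4 and 72.9 in B6J-*Gtpbp2*-/-, with overlapping groups and fold changes of 0.05 and -0.02. *Cacna1h*, a T-type pore with a low level here, had 4.29, 5.02 and 5.61 CPM in B6J, 11.7, 9.85 and 4.49 in B6J.*Gtpbp1*-/- and 15.5, 7.50 and 9.11 in B6J-*Gtpbp2*-/-. B6J was uniformly low and B6J-*Gtpbp2*-/- wholly above it, while B6J.*Gtpbp1*-/- replicate 3 stayed at the B6J level, and *Cacna1h* rose in B6J-*Gtpbp2*-/- (1.10, adjusted p 0.0228) but not in B6J.*Gtpbp1*-/- (0.80, adjusted p 0.114). Without B6J.*Gtpbp1*-/- replicate 3, with effective lengths, with no filter and in DESeq2, *Cacna1h* passed in B6J.*Gtpbp1*-/- too, and the B6J-*Gtpbp2*-/- call was lost with all 9 libraries in a single model, with sex as a term and without B6J replicate 1 or 2. Footprints of *Cacna1h*, at 12.6, 16.0 and 14.1 CPM in B6J, 8.72, 14.3 and 17.3 in B6J.*Gtpbp1*-/- and 11.5, 18.8 and 15.9 in B6J-*Gtpbp2*-/-, overlapped between all groups.

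The alpha2delta subunits are extracellular proteins that carry channels to the membrane, and the products of *Cacna2d1* and *Cacna2d2* bind gabapentinoid drugs. *Cacna2d1*, the first of them to be described, had 113, 123 and 132 CPM in B6J, 149.96, 158 and 170.5 in B6J.*Gtpbp1*-/- and 185, 159 and 165 in B6J-*Gtpbp2*-/-. Every mutant library was above every B6J library, and *Cacna2d1* rose in B6J.*Gtpbp1*-/- (0.37, adjusted p 0.00835) and in B6J-*Gtpbp2*-/- (0.46, adjusted p 0.00805), the only member to rise in both. With effective lengths and without B6J replicate 1, both calls were lost. Per length it had 45.0, 43.9 and 50.3 TPM in B6J, 59.5, 64.6 and 67.5 in B6J.*Gtpbp1*-/- and 71.4, 61.7 and 64.2 in B6J-*Gtpbp2*-/-. Its main transcript Cacna2d1-202, of 7311 bases, had 30.2, 31.6 and 33.5 TPM in B6J, 41.3, 46.0 and 46.7 in B6J.*Gtpbp1*-/- and 54.5, 47.9 and 46.2 in B6J-*Gtpbp2*-/-, higher in all mutant libraries on both measures. Footprints of *Cacna2d1* did not rise. They were 176, 179.5 and 132 CPM in B6J, 146, 186 and 182 in B6J.*Gtpbp1*-/- and 138, 109.5 and 125 in B6J-*Gtpbp2*-/-, with all B6J-*Gtpbp2*-/- libraries below all B6J.*Gtpbp1*-/- libraries and fold changes of 0.08 and -0.39 that did not pass (adjusted p 0.910 and 0.245).

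*Cacna2d2*, the subunit of Purkinje cells that is mutated in ducky mice with ataxia, had 214, 235 and 176 CPM in B6J, 207, 169 and 191 in B6J.*Gtpbp1*-/- and 196, 182 and 152 in B6J-*Gtpbp2*-/-, with overlap and fold changes of -0.15 and -0.24 that did not pass. Its footprints were 527, 425 and 621 CPM in B6J, 553, 627 and 497 in B6J.*Gtpbp1*-/- and 579, 751 and 499 in B6J-*Gtpbp2*-/- and overlapped as well. *Cacna2d3*, which acts at synapses, had 91.9, 99.7 and 91.7 CPM in B6J, 77.2, 83.7 and 87.1 in B6J.*Gtpbp1*-/- and 84.4, 78.8 and 75.4 in B6J-*Gtpbp2*-/-. All mutant values were below all B6J values by a small step, and the fold changes of -0.20 and -0.26 did not pass in edgeR (adjusted p 0.105 and 0.0656), although the B6J-*Gtpbp2*-/- one did in DESeq2, with all 9 libraries in a single model and without B6J-*Gtpbp2*-/- replicate 1. *Cacna2d4*, a subunit of photoreceptors, had at most 5.77 CPM and fold changes of -0.21 and 0.06.

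Calcium channel beta subunits are cytoplasmic proteins that bind the pore and bring it to the membrane. *Cacnb4*, the most abundant of them and the gene mutated in lethargic mice with ataxia, had 549, 589.7 and 572 CPM in B6J, 425, 451 and 498 in B6J.*Gtpbp1*-/- and 466, 448 and 449 in B6J-*Gtpbp2*-/-. B6J was highest without overlap in CPM, and *Cacnb4* fell in B6J.*Gtpbp1*-/- (-0.32, adjusted p 0.0252) and in B6J-*Gtpbp2*-/- (-0.34, adjusted p 0.0225). The B6J.*Gtpbp1*-/- call was lost with the replicate block, with sex as a term and without B6J replicate 1 or 2 or B6J.*Gtpbp1*-/- replicate 1 or 2, and the B6J-*Gtpbp2*-/- call with effective lengths, with sex as a term and without B6J replicate 1 or 2 or B6J-*Gtpbp2*-/- replicate 2 or 3. Per length *Cacnb4* had 162, 174 and 190.2 TPM in B6J, 138, 148 and 168 in B6J.*Gtpbp1*-/- and 159, 158 and 148 in B6J-*Gtpbp2*-/-, where B6J.*Gtpbp1*-/- overlapped with B6J and B6J-*Gtpbp2*-/- lay below it. The 2 main coding transcripts of *Cacnb4* differed. Cacnb4-203, of 8039 bases, had 43.4, 33.6 and 41.5 TPM in B6J, 14.1, 21.9 and 25.0 in B6J.*Gtpbp1*-/- and 17.1, 21.7 and 21.4 in B6J-*Gtpbp2*-/-. Cacnb4-202, of 7872 bases, had 95.0, 116 and 106 TPM in B6J, 103, 103 and 114 in B6J.*Gtpbp1*-/- and 114, 105 and 102 in B6J-*Gtpbp2*-/-. Only Cacnb4-203 was lower in all mutant libraries. Footprints of *Cacnb4* were 176, 193 and 163 CPM in B6J, 139.7, 145 and 122 in B6J.*Gtpbp1*-/- and 159, 142 and 154 in B6J-*Gtpbp2*-/-, lowest in the mutants without overlap, and did not pass (-0.39, adjusted p 0.383 in B6J.*Gtpbp1*-/-, and -0.23, adjusted p 0.478 in B6J-*Gtpbp2*-/-).

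**Figure D3:**
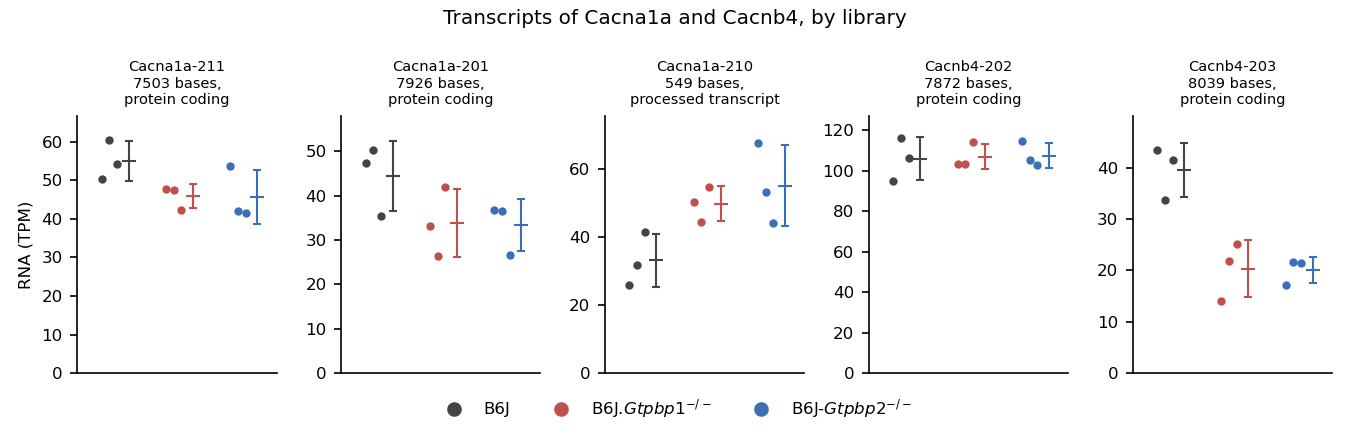
TPM of 3 transcripts of *Cacna1a* and 2 of *Cacnb4*, with 1 point per library and the mean and SD of 3 libraries beside the points. Cacna1a-210 is higher in all mutant libraries than in B6J, Cacnb4-203 is lower, and Cacnb4-202 overlaps between the groups.

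*Cacnb3*, a beta subunit that associates with N-type channels, had 58.6, 57.3 and 60.7 CPM in B6J, 48.2, 40.0 and 35.7 in B6J.*Gtpbp1*-/- and 58.0, 44.1 and 42.9 in B6J-*Gtpbp2*-/-. The B6J.*Gtpbp1*-/- libraries were below B6J, B6J-*Gtpbp2*-/- replicate 1 was at the B6J level and the other B6J-*Gtpbp2*-/- libraries were below it, so *Cacnb3* fell in B6J.*Gtpbp1*-/- (-0.52, adjusted p 0.00452) but not in B6J-*Gtpbp2*-/- (-0.29, adjusted p 0.147), where it passed without B6J-*Gtpbp2*-/- replicate 1 (-0.44). The same B6J-*Gtpbp2*-/- library was the highest of its group for *Cacna1e* and *Scn11a* and held the least choroid plexus RNA, as the summed CPM of 2 choroid plexus markers, led by *Ttr*, was 1679, 1102 and 231 in B6J, 1665, 1222 and 342 in B6J.*Gtpbp1*-/- and 50.04, 1020.3 and 656 in B6J-*Gtpbp2*-/-. The part of that library's composition in these values was not tested. *Cacnb2* had 51.8, 59.6 and 52.5 CPM in B6J, 55.5, 49.6 and 59.5 in B6J.*Gtpbp1*-/- and 63.4, 51.2 and 51.3 in B6J-*Gtpbp2*-/- and fold changes of -0.00 and 0.01. *Cacnb1*, the subunit of the skeletal muscle channel, had 24.4, 25.8 and 21.9 CPM in B6J, 23.4, 21.8 and 17.5 in B6J.*Gtpbp1*-/- and 28.8, 23.0 and 22.1 in B6J-*Gtpbp2*-/- and fold changes of -0.21 and 0.03. Neither passed. The 4 beta subunits summed to 262, 278 and 279.6 TPM in B6J, 233, 238 and 259 in B6J.*Gtpbp1*-/- and 279.8, 253 and 239 in B6J-*Gtpbp2*-/-, and B6J.*Gtpbp1*-/- lay below B6J.

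The main coding transcripts of *Cacna1e* and *Cacnb3* moved in the direction of the gene. Cacna1e-203, of 14921 bases, had 49.5, 51.7 and 49.6 TPM in B6J, 28.4, 28.3 and 28.2 in B6J.*Gtpbp1*-/- and 39.6, 31.0 and 28.3 in B6J-*Gtpbp2*-/-. The transcript Cacnb3-206, of 2477 bases, had 27.3, 28.9 and 23.1 TPM in B6J, 15.7, 15.0 and 15.0 in B6J.*Gtpbp1*-/- and 15.5, 19.7 and 19.5 in B6J-*Gtpbp2*-/-. For both, B6J lay above all mutants. The coding transcript Cacnb3-202, of 2513 bases, overlapped between the groups. Reads are split among transcripts by a model, and the 32 genes hold 271 transcripts, so single transcript levels are less certain than gene levels.

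Few footprint differences passed, also over all genes. Of 27 members tested in footprints, 0 passed in B6J.*Gtpbp1*-/- by edgeR, with 9 at an unadjusted p under 0.05 and 3 called by DESeq2, beside 0.745% of all 13956 genes, 0.573% up and 0.172% down. In B6J-*Gtpbp2*-/-, 1 passed, with 7 under 0.05 and 3 called by DESeq2, beside 2.94% of 13797 genes, 1.28% up and 1.67% down. The members' fold changes were below 0 in 21 of 27 genes in B6J.*Gtpbp1*-/-, beside 48.4% of all genes tested, with a median of -0.36 beside 0.01. In B6J-*Gtpbp2*-/- they were below 0 in 19 of 27, beside 49.4% of all genes tested, with a median of -0.12 beside 0.01. Between the mutants 0 of 27 passed by edgeR and 0 by DESeq2, with 3 under 0.05 unadjusted, beside 0% of 14142 genes, and the median was -0.16 beside 0.00. Spearman's rho of footprint change with coding length in B6J.*Gtpbp1*-/- was -0.39 over 27 members and -0.25 over 13611 genes. In B6J-*Gtpbp2*-/- it was 0.10 and 0.06, and between the mutants -0.57 and -0.35. The members are long (median 1856 codons beside 451), and the part of length in their footprint changes was not tested. *Scn4a*, *Scn10a*, *Cacna1f* and *Cacna1s* were among those with too few footprints to be tested in the main fits. Among the marker lists, granule cell markers were low in footprints as in RNA, with summed CPM of 4431, 6502 and 4899 in B6J, 3538, 2555 and 3891 in B6J.*Gtpbp1*-/- and 2672, 2430.1 and 2101 in B6J-*Gtpbp2*-/-. Of these 8 markers, 6 fell in B6J-*Gtpbp2*-/-, and in B6J.*Gtpbp1*-/- 0 passed by edgeR, with 5 under 0.05 unadjusted and 1 called by DESeq2. The Purkinje cell sum in footprints was 9038, 5889 and 12533 in B6J, 11563, 12304 and 6632 in B6J.*Gtpbp1*-/- and 13904, 13781 and 11438 in B6J-*Gtpbp2*-/-, with overlapping groups and with fold changes above 0 for 6 of 6 genes in either mutant (medians 0.11 and 0.40). For inhibitory interneurons it was 3069, 1928 and 3646 in B6J, 2751, 3496 and 2175 in B6J.*Gtpbp1*-/- and 4071, 3928 and 4387 in B6J-*Gtpbp2*-/-, with every B6J-*Gtpbp2*-/- library above every B6J library and medians of -0.13 and 0.19. Oligodendrocyte markers summed to 11035, 9743 and 14536 in B6J, 14299, 12479.5 and 11433 in B6J.*Gtpbp1*-/- and 13492, 14521 and 13136 in B6J-*Gtpbp2*-/-, with overlap and with 5 and 6 of 6 genes above 0. By edgeR 0 markers of these 3 lists passed in either mutant. At an unadjusted p under 0.05 there were 1 and 1 for Purkinje cells, 1 and 1 for interneurons and 0 and 0 for oligodendrocytes, and DESeq2 called 0 and 1, 0 and 1, and 0 and 0.

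Translation efficiency (TE), the footprint change beyond the RNA change, was tested as the interaction of assay and genotype in 26 members, without *Scn9a*. In B6J.*Gtpbp1*-/-, 0 passed by edgeR and 0 by DESeq2, 3 had an unadjusted p under 0.05, and 0% of all 13086 genes passed. In B6J-*Gtpbp2*-/-, 0 passed by edgeR and 1 by DESeq2, 4 were under 0.05, and 0.00773% of 12931 genes passed. The members had median TE changes of -0.15 (B6J.*Gtpbp1*-/-) and -0.06 (B6J-*Gtpbp2*-/-), beside 0.03 and 0.03 over all genes. The lowest values in B6J.*Gtpbp1*-/- were those of *Cacna1d* (-1.15, adjusted p 0.483) and *Cacna1c* (-1.05, adjusted p 0.482), and the highest that of *Scn2b* (0.49, adjusted p 0.484), whose RNA fold change lay further below 0 than that of its footprints. In B6J-*Gtpbp2*-/- the members under 0.05 unadjusted were *Cacna2d1* (-0.84, adjusted p 0.126), the 1 member that DESeq2 called, *Scn3a* (-1.40, adjusted p 0.374), *Cacna1h* (-0.99, adjusted p 0.332) and *Scn2a* (-0.41, adjusted p 0.402). Leaving out B6J replicate 3 of the footprints made *Cacna1c* and *Cacna1d* pass in B6J.*Gtpbp1*-/- (-1.38 and -1.53) and *Cacna2d1* pass in B6J-*Gtpbp2*-/- (-1.02). Over all genes the number of TE calls also depended on these choices, with 0 in B6J.*Gtpbp1*-/- and 1 in B6J-*Gtpbp2*-/- by edgeR, 58 and 160 by DESeq2, and 174 and 158 by edgeR without that library.

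**Figure D4:**
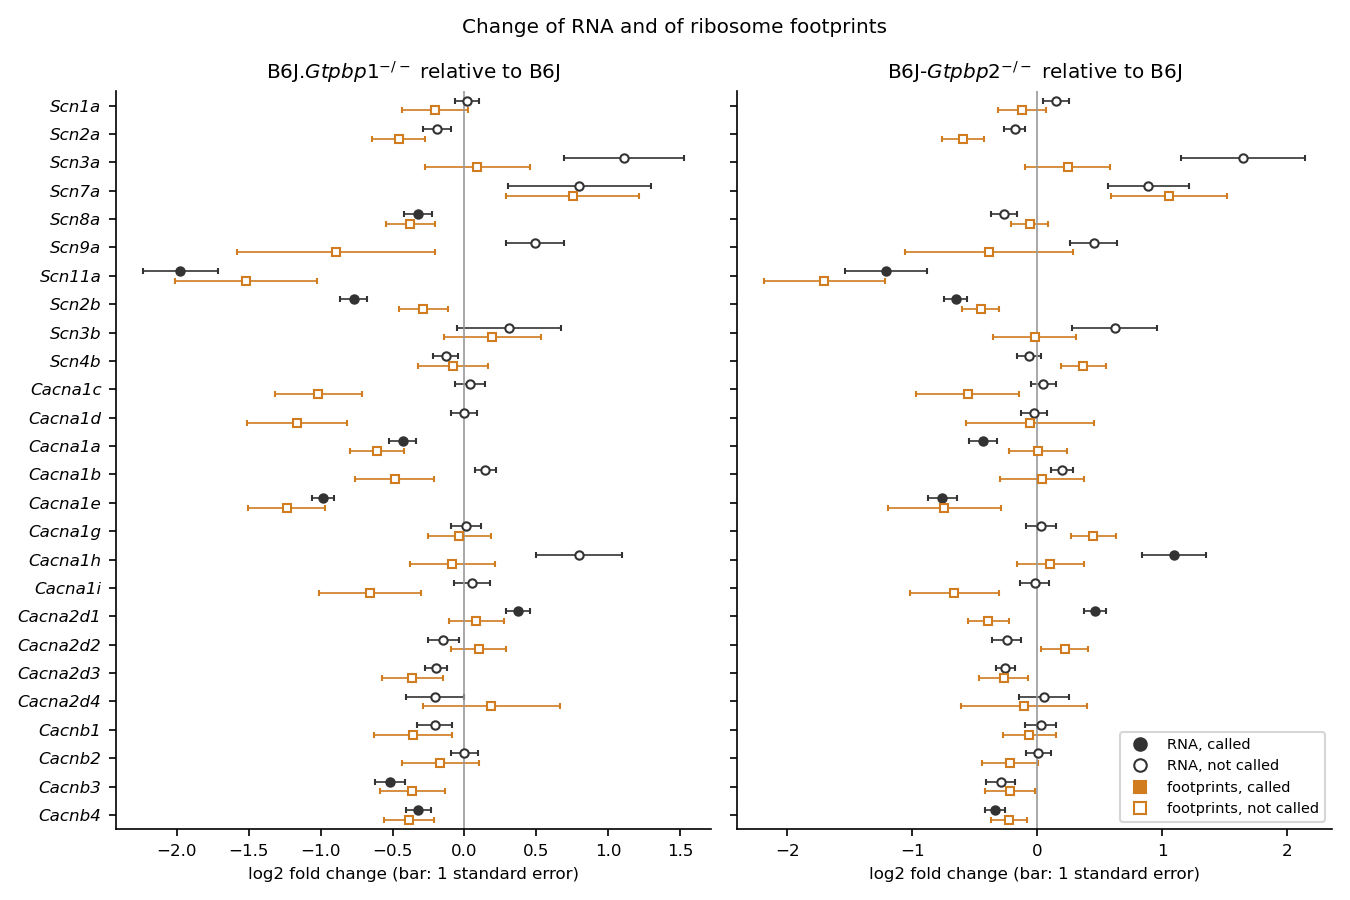
Log2 fold change of RNA (circles) and of footprints (squares) against B6J for channel genes tested in both, with 1 panel per mutant, bars of 1 standard error and filled symbols for genes past the threshold. *Scn2b* and *Cacna1e* lie left of 0 in both assays and mutants, while *Cacna2d1* RNA lies right of 0 with footprints near or left of it.

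The mutants themselves were not told apart at any member. The lowest unadjusted p values in RNA were those of *Scn11a* (-0.76, p 0.0386 in edgeR) and *Cacna1s* (0.66, p 0.0461 in edgeR), and their adjusted p was 1.00 and 1.00. In footprints *Cacna1d* (-1.12, adjusted p 0.298), *Cacna1a* and *Cacna2d1* (0.46, adjusted p 0.392) were the members under 0.05 unadjusted.

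Genes of proteins that bind these channels were tested too, and most did not pass. Of 12 sodium channel partners tested (anchors, fibroblast growth factor homologous factors and adhesion molecules, with *Ank3* most abundant), 3 fell and none rose in each mutant, which is 25% beside 13.8% (B6J.*Gtpbp1*-/-) and 8.63% (B6J-*Gtpbp2*-/-) of all genes tested, with medians of -0.16 and -0.06. These were *Sptbn4*, the spectrin that anchors channels at the initial segment (-0.73, adjusted p 2.49e-05, and -0.61, adjusted p 0.0424), and *Fgf12* (-0.67 and -0.49) and *Fgf11* (-0.35 and -0.57), which bind the channel's C-terminus. Of the 23 calcium channel partners (active zone proteins, calmodulins, RGK proteins and the gamma family), 2 of 21 tested rose and 7 fell in B6J.*Gtpbp1*-/-, and 2 of 22 rose and 6 fell in B6J-*Gtpbp2*-/-, which is 42.9% and 36.4% beside the same shares of all genes, with medians of -0.26 and -0.19. *Cacng3*, a gamma family member that traffics AMPA receptors, had 7.09, 7.86 and 7.59 CPM in B6J, 32.8, 34.0 and 38.1 in B6J.*Gtpbp1*-/- and 30.6, 36.6 and 38.9 in B6J-*Gtpbp2*-/-, far higher in every mutant library (2.21, adjusted p 9.25e-08 in B6J.*Gtpbp1*-/-, and 2.23, adjusted p 3.51e-06 in B6J-*Gtpbp2*-/-). Its footprints were 16.6, 15.1 and 13.0 CPM in B6J, 33.3, 32.5 and 46.0 in B6J.*Gtpbp1*-/- and 20.6, 20.7 and 25.4 in B6J-*Gtpbp2*-/-, and its TE in B6J-*Gtpbp2*-/- was -1.63 (adjusted p 0.0372), the only TE call among all genes in the main edgeR fit.

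*Rims1*, which tethers calcium channels at the active zone, fell in both mutants (-0.83, adjusted p 3.63e-05 in B6J.*Gtpbp1*-/-, and -0.82, adjusted p 0.0003 in B6J-*Gtpbp2*-/-), and so did *Rem2*, an RGK protein that inhibits calcium channels (-0.95 and -0.82), and *Calm3*, a calmodulin gene (-0.52 and -0.35). *Rims2* fell in B6J.*Gtpbp1*-/- (-0.54, adjusted p 0.00140). *Gem*, another RGK protein, rose in both (adjusted p 0.0297 in B6J.*Gtpbp1*-/-, and 2.12, adjusted p 0.00895 in B6J-*Gtpbp2*-/-). In footprints of B6J.*Gtpbp1*-/-, 2 of 21 calcium channel partners passed, beside 0.745% of all genes, as *Cacng3* rose (1.32, adjusted p 0.0209) and *Rims1* fell (-1.26, adjusted p 0.0209). In those of B6J-*Gtpbp2*-/-, 0 of 21 passed by edgeR, beside 2.94% of all genes, with 8 at an unadjusted p under 0.05 and 1 called by DESeq2. The sodium leak channel complex, which sets the resting potential outside the voltage-gated families, had 4 genes tested, led by *Unc80*, and by edgeR 0 changed in RNA of either mutant, as by DESeq2, with 2 and 0 at an unadjusted p under 0.05. Of all genes tested in RNA, 13.8% and 8.63% passed.

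AGA, the codon read by the tRNA that is short in all of these mice, was counted in the main coding transcript of 28 members that had at least 5 estimated counts in every RNA library. The members held a median of 9.77 AGA codons per 1000 codons beside 10.4 over 15029 genes, and they were long, with a median of 1856 codons beside 451. *Scn2b*, which fell in both mutants, and *Cacnb1* had 0 AGA codons. *Cacnb4* was the richest, with 12 in 486 codons (24.7 per 1000), ahead of *Scn3b* with 5 in 215 (23.3 per 1000) and *Cacna2d1* with 22 in 1084 (20.3 per 1000), where AGA wrote 46.8% of the arginines. Genes are not independent replicates of a condition, so rank correlations over them are only descriptions. Spearman's rho between TE change in B6J.*Gtpbp1*-/- and coding length was -0.60 over 26 members and -0.36 over 12762 genes, and with AGA per 1000 codons it was 0.03 and -0.11. In B6J-*Gtpbp2*-/- rho with coding length was -0.14 and -0.01.

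The AGA-richest stretch of 30 codons of *Cacnb4* is shown because it lies in the part of the beta subunits that is alike across the family, so codon use can be compared between the 4 genes. It was taken inside 1 coding exon from GRCm38, exon 9 of 13 at chr2:52455610-52455699 on the minus strand, beside the most similar stretch of the same length in frame in *Cacnb1* (chr11:98009579-98009668, minus strand), *Cacnb2* (chr2:14975140-14975229, plus strand) and *Cacnb3* (chr15:98641626-98641715, plus strand). Capitals mark AGA codons.
Cacnb4: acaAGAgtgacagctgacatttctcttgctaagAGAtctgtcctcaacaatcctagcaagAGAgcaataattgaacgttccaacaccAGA
Cacnb1: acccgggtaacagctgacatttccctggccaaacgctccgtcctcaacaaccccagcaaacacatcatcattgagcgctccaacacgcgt
Cacnb2: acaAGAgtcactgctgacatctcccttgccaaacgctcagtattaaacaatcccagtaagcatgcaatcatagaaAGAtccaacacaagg
Cacnb3: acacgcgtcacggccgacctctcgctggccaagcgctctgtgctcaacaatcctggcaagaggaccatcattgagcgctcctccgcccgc
*Cacnb4* has 4 AGA codons among 5 arginine codons of this stretch, *Cacnb2* has 2 of 4, 1 of them at the position of a *Cacnb4* AGA, *Cacnb1* has 0 of 4, and *Cacnb3* has 0 of 5. Of 90 bases, 64, 67 and 65 are identical to *Cacnb4* in *Cacnb1*, *Cacnb2* and *Cacnb3*. Over the whole coding transcript the counts were 12 in *Cacnb4* (24.7 per 1000 codons), 13 in *Cacnb2* (19.8), 2 in *Cacnb3* (4.13) and 0 in *Cacnb1*. RNA fell in *Cacnb4* in both mutants and in *Cacnb3* in B6J.*Gtpbp1*-/-. The part of AGA codons in these changes was not tested.

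The AGA-richest 30 codons of *Cacna1e*, the calcium channel pore that fell most, are shown with the matching stretch of its relatives *Cacna1a*, which fell less, and *Cacna1b*, which did not pass. They are exon 8 of 47 coding exons in each gene, at chr1:154493327-154493416 (minus strand) for *Cacna1e*, chr8:84536062-84536151 (plus strand) for *Cacna1a* and chr2:24719966-24720055 (minus strand) for *Cacna1b*, on GRCm38 with AGA in capitals.
Cacna1e: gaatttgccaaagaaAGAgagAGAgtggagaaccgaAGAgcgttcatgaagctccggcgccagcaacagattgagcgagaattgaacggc
Cacna1a: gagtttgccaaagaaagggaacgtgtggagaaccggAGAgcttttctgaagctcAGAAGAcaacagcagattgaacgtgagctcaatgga
Cacna1b: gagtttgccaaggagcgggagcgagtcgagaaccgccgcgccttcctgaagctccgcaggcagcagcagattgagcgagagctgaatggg
Each stretch has 7 arginine codons, of which AGA makes 3 in *Cacna1e*, 3 in *Cacna1a*, with 1 at a shared position, and 0 in *Cacna1b*. Identical bases to *Cacna1e* number 68 of 90 in *Cacna1a* and 70 of 90 in *Cacna1b*. The stretch was chosen by the AGA codons of *Cacna1e*. Over the whole coding transcript *Cacna1e*, *Cacna1a* and *Cacna1b* had 26, 17 and 15 AGA codons (11.4, 7.18 and 6.45 per 1000).

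Neighbouring channel genes did not change together. *Scn3a*, *Scn2a*, *Scn1a*, *Scn9a* and *Scn7a* lie side by side on chromosome 2 between 65457118 and 66784914 (GRCm38), and none of them passed the threshold. *Scn2b* (chr9:45117782-45130070) and *Scn4b* (chr9:45138395-45154152) are next to each other, and *Scn2b* alone fell. Other changed genes stand apart, with *Cacna1e* at chr1:154390731-154884501, *Cacna1a* at chr8:84388440-84640246, *Cacnb4* at chr2:52428320-52676831, *Cacna2d1* at chr5:15934691-16374511, *Cacnb3* at chr15:98630840-98644529, *Scn8a* at chr15:100869858-101045938 and *Cacna1h* at chr17:25374285-25433783. Exons of 9 members overlap an exon of a gene on the opposite strand, among them *Cacna1a* (435 bases with Gm16183) and *Cacnb4* (1433 bases with A430018G15Rik), and because the use of strand in counting is not stated, reads of the 2 genes in these overlaps cannot be told apart.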

How the data were processed

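Poly(A) RNA (TruSeq v2, paired-end) and ribosome footprints were measured in 3 libraries per genotype each. For RNA the authors deposited the estimated counts and TPM that kallisto 0.42.4 gave per transcript after pseudoalignment to Gencode M20. For footprints the authors deposited raw counts per gene over coding sequence, made with Bowtie2 2.2.3, HISAT2 2.1.0 on mm10 and featureCounts. The 138835 transcripts were summed to genes, and estimated counts were rounded. Symbols, positions and sequences came from Gencode M21 on GRCm38, where all 32 members matched.

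Each pair of genotypes was compared in edgeR 4.0.16 (R 4.3.3, limma 3.58.1) with robust quasi-likelihood fits, TMM factors, 5 or more counts in at least 3 of 6 libraries and Benjamini-Hochberg adjustment over all genes tested, with a threshold of 0.05. TE was the assay by genotype interaction over 12 libraries for genes that reached 10 counts in 3 or more RNA and 3 or more footprint libraries, histone genes left out. The sleuth and riborex fits of the study were not used here. Fits were tested on simulated data. Alternatives were DESeq2 1.42.0, upper quartile scaling, no filter, effective length offsets, protein-coding transcripts only, all 9 libraries in a single model, replicate number as a term, sex as a term and each library left out in turn, 117 fits in all. Tables were made in Python 3.11.15 (pandas 2.3.3, numpy 2.4.6), and plots in matplotlib 3.10.9.

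Members and lists were chosen with earlier results of these data known. Counts cover all members, and a few members are not reported here singly. Values per library are given for named members that passed the threshold in any test or had a high mean TPM, with others added where the text compares them, and up to 6 partners per list are named by smallest adjusted p. Library depth was 37794598 to 52114400 estimated counts for RNA and 3630823 to 10442573 counts for footprints, which bounds the precision for rare members.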

Additional observations from a re-analysis of the deposited data

How the results depend on the processing

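No call of a member changed its direction under any alternative. Of 249 alternative values for 18 calls, 194 kept the call and 55 lost it, and 7 of the 18 calls were kept throughout, among them *Scn2b* in both mutants, and *Cacna1e*, *Cacnb3* and *Scn11a* in B6J.*Gtpbp1*-/-. The number of members past the threshold in RNA of B6J.*Gtpbp1*-/- was 9, and 7 to 11 under other settings (7 with effective lengths, with the replicate block and with sex as a term, 11 with no filter), and 6 to 11 with 1 library left out, the lowest without B6J replicate 1 or B6J.*Gtpbp1*-/- replicate 2 and the highest without B6J.*Gtpbp1*-/- replicate 3. In RNA of B6J-*Gtpbp2*-/- it was 8, with 3 for effective lengths, 4 for sex as a term, 7 for the replicate block, and 3 to 10 with 1 library left out: 3 without B6J replicate 1, 4 without B6J replicate 2, 5 without B6J-*Gtpbp2*-/- replicate 3 and 10 without B6J-*Gtpbp2*-/- replicate 1. Ddx3y, on the Y chromosome, had 21, 13 and 12 RNA counts in B6J-*Gtpbp2*-/- and 4663, 5455 and 6574 in the libraries with male counts, 1 of B6J and 2 of B6J.*Gtpbp1*-/-, so sex and genotype are partly tied.

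In footprints of B6J.*Gtpbp1*-/- the number was 0, with 3 for DESeq2, 1 for no filter and 0 to 3 with 1 library left out, 3 without B6J replicate 3. In footprints of B6J-*Gtpbp2*-/- it was 1, with 0 for upper quartile scaling, 3 for DESeq2, 3 for no filter, 0 for all 9 libraries in a single model, 3 for the replicate block, and 0 to 2 with 1 library left out: 0 without B6J replicate 1, B6J replicate 2, B6J-*Gtpbp2*-/- replicate 1 or B6J-*Gtpbp2*-/- replicate 2, and 2 without B6J replicate 3. TE in B6J.*Gtpbp1*-/- went from 0 to 2 without B6J replicate 3 of the footprints and stayed at 0 otherwise, and TE in B6J-*Gtpbp2*-/- went from 0 to 1 with DESeq2 and to 1 without that same library. Both direct comparisons of the mutants gave 0 throughout. For each of these the cause was not tested.

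*Scn2b* and *Cacna1e* fell in both mutants with upper quartile scaling too. In footprints of B6J.*Gtpbp1*-/-, DESeq2 gave 251 up and 155 down in place of 80 up and 24 down. Leaving out 1 library gave log2 fold changes of -0.84 to -0.70 and -0.71 to -0.58 for *Scn2b*, -1.01 to -0.95 and -0.92 to -0.66 for *Cacna1e*, and 0.31 to 0.42 and 0.39 to 0.52 for *Cacna2d1*, in B6J.*Gtpbp1*-/- and B6J-*Gtpbp2*-/-. Members under 1 TPM rest on few counts. Each group had 3 libraries, and footprint libraries held fewer counts than RNA libraries. The smallest footprint difference that these fits could detect was not tested.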

Other observations

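Markers of glia and vessels also differed between genotypes. Microglia markers (4 genes, led by *Csf1r*) had summed CPM of 60.7, 62.7 and 63.3 in B6J, 117, 102 and 93.3 in B6J.*Gtpbp1*-/- and 107, 94.8 and 109 in B6J-*Gtpbp2*-/-, and 2 of 4 rose in each mutant, *Cx3cr1* and *Csf1r*. Endothelial markers (3 genes, led by *Flt1*) had 96.5, 95.9 and 92.1 in B6J, 121, 125 and 131 in B6J.*Gtpbp1*-/- and 110.0, 142 and 158 in B6J-*Gtpbp2*-/-, and 2 of 3 rose in each. Astrocyte and Bergmann glia markers (6 genes, led by *Slc1a3*) had 3384, 3602 and 3042 in B6J, 3184, 2719.5 and 3204 in B6J.*Gtpbp1*-/- and 2802, 3178 and 2804 in B6J-*Gtpbp2*-/-, with 1 up and 3 down in each mutant. None of these lists had a gene at 0 in all RNA libraries. Of all genes tested in RNA, 5.9% rose and 7.93% fell in B6J.*Gtpbp1*-/-, and 3.61% rose and 5.02% fell in B6J-*Gtpbp2*-/-.

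Markers of tissues that surround the cerebellum varied among the footprint libraries. The 5 bone and connective tissue markers summed to 274, 656 and 894 in B6J, 1554, 1371 and 2662 in B6J.*Gtpbp1*-/- and 605, 963 and 472 in B6J-*Gtpbp2*-/-, as CPM of footprints, led by *Col1a1*, and 0 of 5 passed in edgeR in either mutant, with 4 and 0 at an unadjusted p under 0.05 and 1 and 0 called by DESeq2. The 8 skeletal muscle markers, led by *Acta1*, summed to 10.8, 23.3 and 16.8 in B6J, 40.0, 18.9 and 50.5 in B6J.*Gtpbp1*-/- and 7.18, 8.44 and 5.39 in B6J-*Gtpbp2*-/-. The part of these tissues in the footprint values of the channel genes was not tested.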
